A study of Mus musculus with 15 samples.

Results

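Sperm tRNA fragments (tRFs) were compared between sons of fathers fed an obesity-inducing diet (OID F1) and sons of fathers fed a control diet (CO F1). The comparison took in all 47 tRFs of the deposited table, each called after the amino acid and the anticodon of the tRNA it comes from, out of 215 entries, and 8 of the 15 libraries of the series, 4 of CO F1 and 4 of OID F1 males. All males were C57BL/6 mice by the labels, of the substrain C57BL/6NTac by the study's methods. The fathers (F0) ate their diet for 7 weeks and were then mated with females reared on the control diet, and sons of both groups ate only the control diet, so that the name OID F1 refers to the father's diet although the label of these sons gives the obesity-inducing diet. Pups were cross-fostered and nursed in pooled litters, and the sources used here do not say which sons shared a father, so p-values below measure the spread between these 8 samples. The other 7 libraries were those of the fathers' generation, 3 of CO F0 and 4 of OID F0 males. RNA came from spermatozoa of the cauda epididymis from which somatic cells had been lysed away, and a gel slice of 30 to 45 nucleotides was sequenced.

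tRFs are pieces of transfer RNAs, the adaptors that bring each amino acid to the ribosome. Transfer RNAs that carry the same amino acid but read different codons are called isoacceptors, and they differ in the anticodon, the 3 bases that pair with the codon. In maturing sperm the fragments are largely cut in or near the anticodon loop, so that 5′ pieces from the start of the tRNA to its anticodon prevail, and a part of them is delivered by vesicles from the epididymis. Fragments of glycine and glutamate tRNAs are known to dominate the small RNA of mouse sperm.

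The genes of 3 groups of tRNAs that recur below are shown, as far as their sequences were held, to let the reader see what a fragment of 30 to 45 nucleotides covers. The anticodon is in capitals, and positions are RefSeq's on GRCm38. The sequences were cut from promoter windows or transcript exons that hold the whole tRNA gene. They are read 5′ to 3′ on the strand of the tRNA, without the CCA end that is added later. ArgTCG and AlaAGC were among the tRFs that were lower in every OID son than in every CO son, and the serine genes show how alike isoacceptors can be.
ArgTCG, n-TRtcg5, chr7:79466419-79466491, plus strand: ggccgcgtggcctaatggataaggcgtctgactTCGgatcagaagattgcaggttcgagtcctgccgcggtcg
AlaAGC, n-TAagc16, chr13:21222586-21222657, plus strand: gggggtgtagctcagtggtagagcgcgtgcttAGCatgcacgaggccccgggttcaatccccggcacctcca
SerAGA, n-TSaga9, chr4:10874064-10874145, plus strand: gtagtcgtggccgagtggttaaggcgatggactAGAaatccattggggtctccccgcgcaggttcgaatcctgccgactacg
SerTGA, n-TStga1, chr13:23518146-23518227, plus strand: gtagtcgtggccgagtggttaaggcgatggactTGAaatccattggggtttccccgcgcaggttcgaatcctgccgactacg
SerGCT, n-TSgct5, chr13:22050686-22050767, minus strand: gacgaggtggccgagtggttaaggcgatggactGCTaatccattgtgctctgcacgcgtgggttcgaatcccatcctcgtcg
The SerAGA and SerTGA genes shown are identical over all 33 bases before the anticodon, and the SerGCT gene has the same base as SerAGA at 29 of the 33. A fragment that ends before the anticodon therefore cannot be given to SerAGA or SerTGA with certainty, and their values are uncertain to that extent. Of the 47 tRFs, 46 matched at least 1 of 408 nuclear tRNA genes of the RefSeq annotation, with 405 loci in all. Trnat-ugu, Trnap-ugg, Trnav-aac and Trnal-aag are listed within chr11:8361-11797. Their spacing is that of n-TTtgt2, n-TPtgg4, n-TVaac7 and n-TLaag6 within chr11:48853619-48857055. They may be the same genes counted again, so the counts of genes and loci may be too high. Of the 405 loci, 78 lie inside another gene of GENCODE M21, and 105 lie on chromosome 13. AlaAGC has 13 loci, 9 of them on chromosome 13, and ArgTCG has 5, of which the one printed overlaps an exon of Gm10616. ArgCCG has 3 loci outside other genes, PheGAA 7 outside other genes, GlnTTG 6 and GlyTCC 7, while GlyACC has a single locus at chr11:48823728-48823801, outside other genes. CysGCA has the most loci, 56. Across the 46 tRFs with a locus, the number of loci and the mean value in F1 males had a Spearman's rho of 0.506, a description over tRFs from the same libraries.

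Several properties of the libraries bear on the comparison. The reads behind the values, recovered from the table, came to 2675346, 35677, 992973 and 368510 on tRFs in CO F1 males 1 to 4 and to 1684563, 4180068, 2263106 and 4924160 in OID F1 males 1 to 4. OID libraries were thus deeper as a group, the control male 2 was shallowest by far, and the part of depth in the differences below was not tested beyond the fits that include it. The miRNA reads of OID F1 males 1 and 2 were the same in all 68 miRNAs with a read in either, 275 reads each, whereas the other 104 pairs of libraries shared at most 24.2% of such values. Their tRF reads differed in all 47 tRFs, so both were kept as males, and counts of tRFs are given below also with these males averaged as 1 sample. The 3 sperm miRNAs mir-34b, mir-34c and mir-449a had 0 to 4 reads per F1 library in all, smooth muscle miRNAs 1 to 16, leukocyte miRNAs 0 to 2, erythrocyte miRNAs 1 to 6 and epithelial miRNAs 1 to 11, too few to check which cells the RNA came from. Values below are the authors' normalized values, which sum to between 503558 and 741153 over the tRFs of an F1 library, or percentages of the tRF reads of a library, and intervals on these cover counting error only.

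The fragment pool of the sons was steep. GluCTC and GlyGCC held 72.4% of the tRF reads on average over the 8 F1 libraries, 8 further tRFs with 1% to 10% each held 19.3%, 18 tRFs with 0.1% to 1% held 7.69%, and the remaining 19 less than 1% together. GluCTC, from a tRNA of the acidic amino acid glutamate, had normalized values of 306354, 322010, 277532 and 229887 in CO sons and 354605, 289886, 355463 and 292386 in OID sons. GlyGCC, the main glycine tRF, had 158654, 176749, 161616 and 117002 in CO sons and 203356, 196784, 187303 and 174247 in OID sons. Groups overlapped in both, with ratios of OID to CO of 1.14 and 1.24. As a share of reads GlyGCC did not overlap, with 22.9%, 26.4%, 25.8% and 23.2% in CO sons and 27.4%, 29.8%, 26.8% and 26.7% in OID sons. The Wilson interval of the shallow control male 2, 25.9% to 26.9%, spans the shares of OID males 3 and 4. For that library the lack of overlap in this share was thus within counting error. The next 4 tRFs were GluTTC, GlyCCC, LysCTT and AspGTC. GluTTC, the second glutamate isoacceptor, had 49042, 22688, 16716 and 10935 in CO sons and 27235, 35570, 14579 and 24651 in OID sons. GlyCCC had 24435, 25934, 25557 and 19164 in CO sons and 29307, 25134, 24821 and 23852 in OID sons. AspGTC, the aspartate tRF, had 32367, 11372, 13388 and 13456 in CO sons and 8192, 11653, 5128 and 16326 in OID sons, and the first control male stood 2.41 times above the next. GlyCCC was the steadiest tRF of these, with a highest value 1.53 times its lowest, and AspGTC the least steady, at 6.31 times.

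No tRF differed between OID and CO sons at an adjusted p under 0.05 by limma (0 of 47, percent called 0, lowest adjusted p = 0.108). Before adjustment, 8 of 47 (17.0%) were under 0.05, namely SerCGA, GlnTTG and GlyTCC, higher in OID, and ArgTCG, ArgCCG, AlaAGC, PheGAA and LysCTT, lower in OID. In 6 of 47 tRFs (12.8%) the groups did not overlap, with ArgCCG, ArgTCG, AlaAGC and PheGAA below and GlnTTG and GlyACC above. Over all 47 tRFs, 25 had a higher and 22 a lower mean log2 value in OID sons, with a median log2 difference of 0.08. That median was -0.08 on the share of summed values, a shift of -0.15, and -0.17 with limma-voom on the recovered reads, a shift of -0.24, and the splits were 21 higher to 26 lower and 23 to 24. With OID males 1 and 2 averaged, 5 tRFs were under 0.05 before and 0 after adjustment by limma, and without the shallow control male 2 the counts were 9 and 0. On the share of summed values, in place of the authors' scaling, AlaAGC, ArgCCG and ArgTCG passed, each at a limma adjusted p of 0.0496. Under 0.05 before adjustment were 0 higher and 5 lower tRFs on that scale, against 3 and 5 on the authors', and 2 and 7 with limma-voom as well as with the depth term. Without control male 2, 11 tRFs (23.4%) did not overlap, and without OID male 1 or OID male 2 there were 8 (17.0%) or 7 (14.9%). Leaving out a male can only keep or raise this count, so the rise is no sign of a firmer separation.

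Among the tRFs that were lower in OID sons, those of arginine tRNAs stood first. Arginine is a basic amino acid, and of its 5 isoacceptors ACG, CCG and TCG read codons of the CGN box. ArgTCG had normalized values of 242, 657, 300.3 and 456 in CO sons and of 166, 161, 126 and 178 in OID sons. The highest OID value lay below the lowest CO value, and the shallow control male 2, with 35 reads, was the highest. The ratio of the means was 0.382 (limma log2 difference of -1.29, standard error 0.34, adjusted p = 0.108, exact permutation p = 0.0286). The log2 difference was -0.71 with log2 depth as a covariate, and -1.51 without control male 1, where it passed (limma adjusted p = 0.0459). ArgCCG had 4339, 2553, 2517 and 3136 in CO sons and 1620, 1691, 1147 and 1739 in OID sons. Again no OID son reached a CO son, and the ratio was 0.494 (limma log2 difference of -0.999, standard error 0.28, adjusted p = 0.108, exact permutation p = 0.0286). The other arginine tRFs, ArgACG, ArgCCT and ArgTCT, had overlapping groups and log2 differences of -0.47, -0.33 and 0.21.

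AlaAGC, from the main isoacceptor of the small amino acid alanine, had normalized values of 3827, 3735, 3227 and 2616 in CO sons and 2326, 2312, 1643 and 1717 in OID sons. The groups were apart by less than the spread within either of them, and the ratio was 0.597 (limma log2 difference of -0.75, standard error 0.26, adjusted p = 0.247, exact permutation p = 0.0286). PheGAA, the sole phenylalanine tRF, had 51.7, 75.6, 75.6 and 78.4 in CO sons and 45.8, 45.9, 41.2 and 48.4 in OID sons. The first control male lay far closer to the OID sons than to the other control sons, and male 2 rested on 4 reads. The ratio for PheGAA was 0.645 (limma log2 difference of -0.61, standard error 0.25, adjusted p = 0.272, exact permutation p = 0.0286). LysCTT, the more abundant of the lysine tRFs, had 20736, 23720, 35491 and 27827 in CO sons and 14622, 15140, 21487 and 17129 in OID sons. Here OID male 3 lay above control male 1, so the groups overlapped (ratio 0.634, limma log2 difference of -0.64, standard error 0.27, adjusted p = 0.272, exact permutation p = 0.0571).

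Of the tRFs that were higher in OID sons, GlnTTG belongs to glutamine, an amide, and had normalized values of 288, 320, 375 and 399 in CO sons and 515, 480, 629 and 425 in OID sons. The groups did not overlap, although control male 4 and OID male 4 were close and, as a share of reads, control male 4 (0.0792%) lay above OID males 1, 2 and 4 (0.0694%, 0.0725% and 0.0652%). The ratio was 1.48 (limma log2 difference of 0.56, standard error 0.25, adjusted p = 0.272, exact permutation p = 0.0286). GlyTCC had 14607, 3866, 8162 and 9041 in CO sons and 9284, 16237, 15992 and 23793 in OID sons. The first OID son was among the control sons and the first control son among the OID sons. Its log2 difference of 0.95 (limma standard error 0.42, adjusted p = 0.272, exact permutation p = 0.0571) was 0.08 with log2 depth as a covariate. GlyACC was a rare tRF with 19, 0, 8 and 2 reads in CO sons and 19, 35, 19 and 45 in OID sons, or normalized values of 5.42, 0.50, 5.55 and 3.23 against 8.86, 6.03, 6.36 and 6.46. The value of 0.50 stands for 0 reads in the shallow control library, where 3 reads would be 0.00841% of the library, and with depth as a covariate the log2 difference of GlyACC was 0.07 in place of 0.96. The share of control male 3, 0.000806% with a Wilson interval of 0.000408% to 0.00159%, spans the shares of all 4 OID sons, so the lack of overlap in GlyACC was within counting error. SerCGA had 47.9, 75.6, 30.8 and 42.9 in CO sons and 102, 47.6, 88.4 and 131 in OID sons. The second OID son lay among the control sons, and the second control value rested on 4 reads (ratio 1.87, limma log2 difference of 0.87, standard error 0.37, adjusted p = 0.272, exact permutation p = 0.0857). In contrast to GlyTCC and GlyACC, the log2 difference of SerCGA was larger with depth as a covariate, 1.26.

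**Figure D1:**
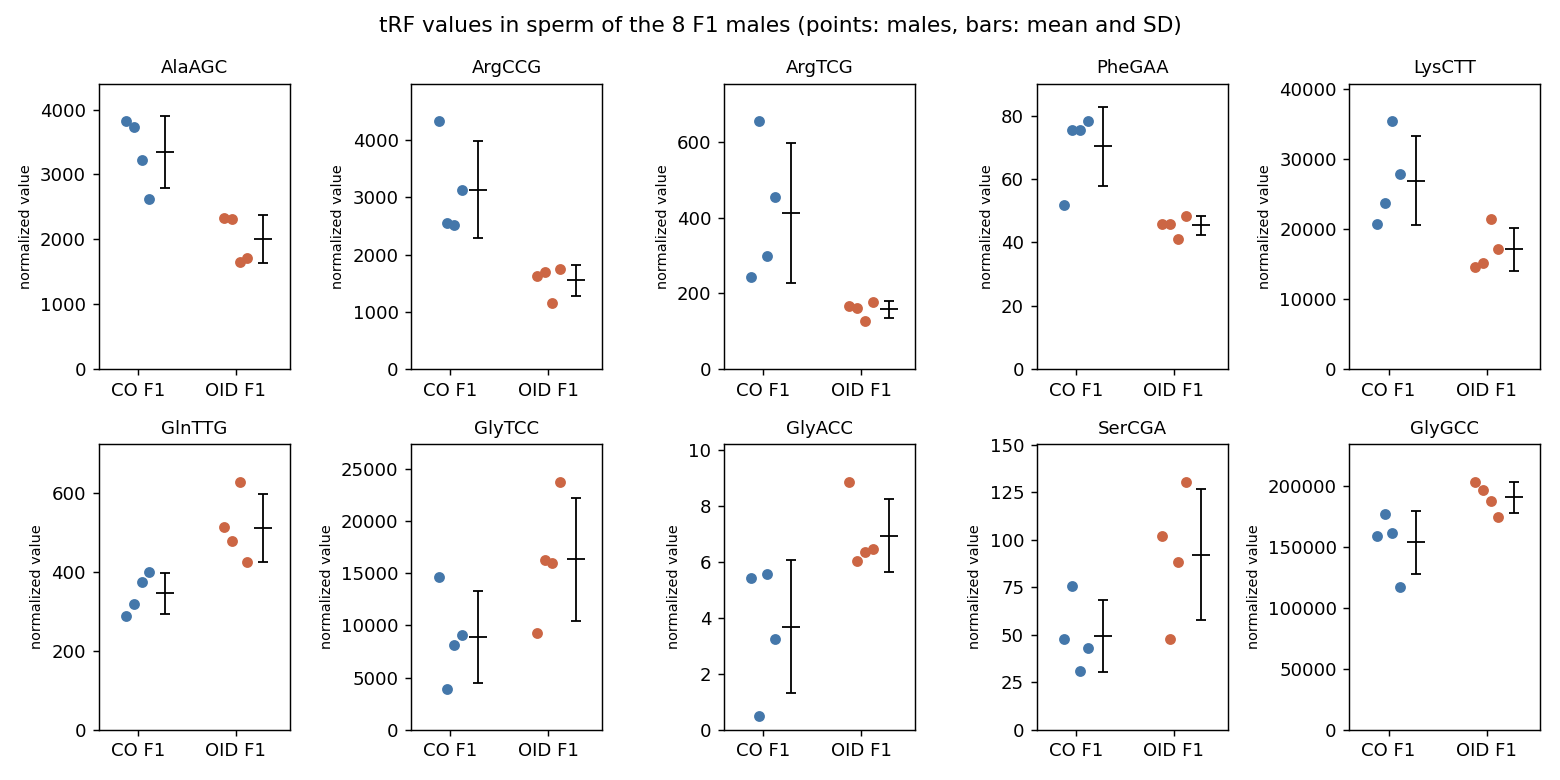
Normalized value of 10 tRFs (vertical axes from 0, each with its own scale) in the 4 CO F1 and 4 OID F1 males. Points are males 1 to 4 from left to right, and bars give the mean and SD. All OID sons lie below all CO sons in AlaAGC, ArgCCG, ArgTCG and PheGAA and above them in GlnTTG and GlyACC.

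ValTAC, a valine tRF, had normalized values of 3652, 2083, 2869 and 2162 in CO sons and 3012, 3941, 2553 and 11311 in OID sons, and the fourth OID son stood alone at 2.87 times the next. The groups overlapped (limma log2 difference of 0.72, standard error 0.44, adjusted p = 0.376), and the log2 difference was 0.25 without that son and 0.19 with log2 depth as a covariate. SeCTCA, from the selenocysteine tRNA, was found with 3, 0, 2 and 3 reads in CO sons and with 1, 2, 1 and 2 in OID sons and is given no fold.

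Members of an amino acid often lay on the same side. All 3 alanine and all 3 proline tRFs were lower in OID sons, as were 4 of 5 for arginine and both for lysine, while all 4 glycine, all 3 valine and both glutamine tRFs were higher, against 25 of 47 higher overall. At an unadjusted p under 0.05 these families held 1 of 3 (alanine), 0 of 3 (proline), 2 of 5 (arginine), 1 of 2 (lysine), 1 of 4 (glycine), 0 of 3 (valine) and 1 of 2 (glutamine), beside the 17.0% of all tRFs. The counts of alanine, proline, arginine, valine and glutamine were the same under the 4 other scalings and the depth term, whereas 1 glycine tRF, GlyCCC, turned to -0.029 on the share of summed values, and LysTTT turned to higher with median of ratios scaling and with the depth term. Both glutamate tRFs were higher as well, by 0.19 each, and neither was under 0.05 before adjustment by limma. GluTTC turned to lower with limma-voom and with the depth term. Reads shared by several tRNAs were counted with a weight, so members of like sequence are not separate observations. Serine, threonine, isoleucine and leucine were split. In serine, SerGCT, the most abundant member, was lower by a log2 difference of -0.50 and SerCGA, SerAGA and SerTGA were higher, by 0.87, 0.32 and 0.04. In leucine the range ran from -0.35 for LeuAAG to 1.41 for LeuTAA, which had a standard error of 0.90 and did not pass (limma adjusted p = 0.376). LeuTAA had 0 reads in the shallow control male 2, its other values of 30.3, 42.8 and 36.0 in CO sons overlapped the 33.5, 59.8, 45.2 and 37.8 of OID sons, and its log2 difference turned to -0.61 with depth as a covariate.

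**Figure D2:**
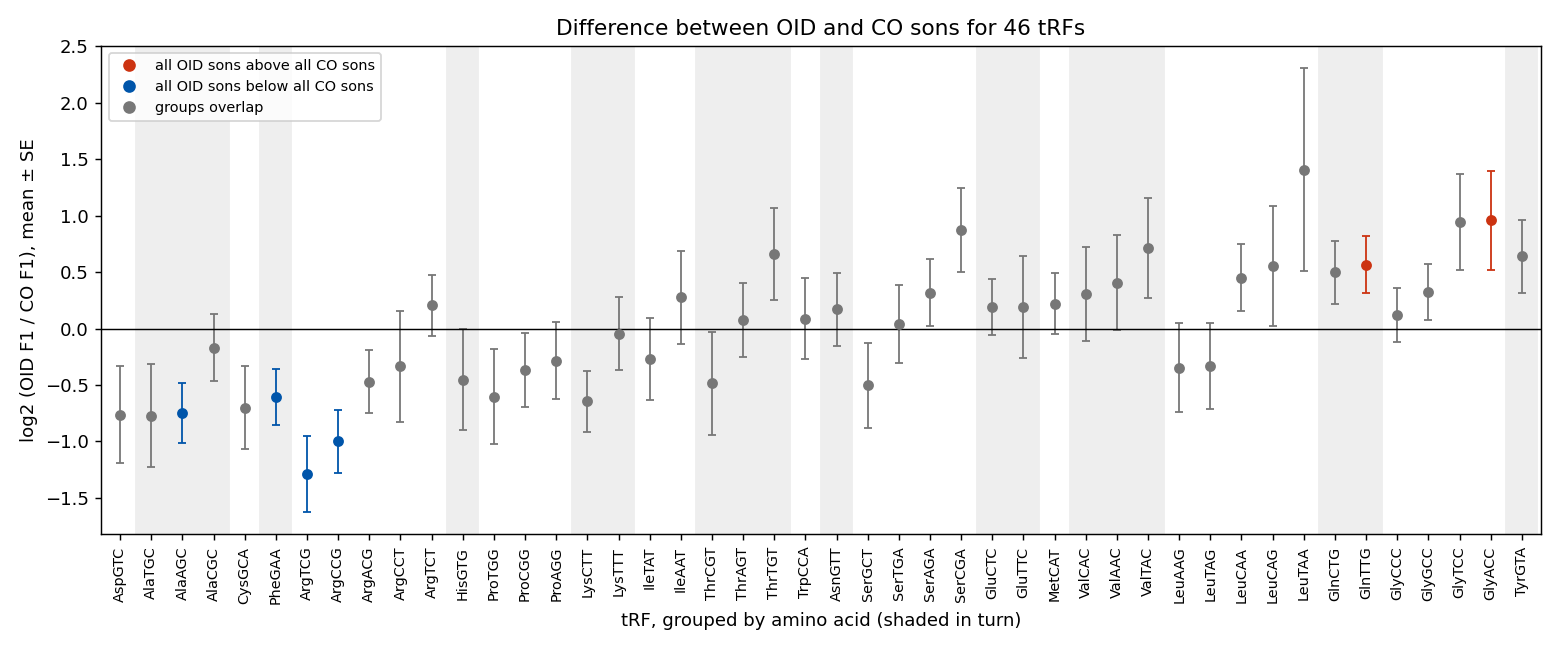
Log2 difference of OID from CO sons with its limma standard error (vertical axis) for 46 tRFs, without SeCTCA, grouped by amino acid and ordered by the group's median. Colour marks tRFs whose groups do not overlap. ArgTCG at -1.29 and ArgCCG at -0.999 are the lowest, and the glycine and valine tRFs all lie above 0.

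Summed over isoacceptors, 0 of 21 amino acids had an adjusted p under 0.05 by limma (percent called 0, lowest adjusted p = 0.235), 2 of 21 (9.52%) had an unadjusted p under 0.05, and 4 of 21 (19.0%) did not overlap. Alanine and phenylalanine met both of the latter criteria, lower in OID, and glycine and glutamine did not overlap, higher in OID. Alanine summed to 6054, 4561, 4185 and 3513 in CO sons and 3146, 3246, 2401 and 2693 in OID sons (ratio 0.627, limma log2 difference of -0.65, standard error 0.25, adjusted p = 0.235, exact permutation p = 0.0286). On the share of summed values alanine passed, at a log2 difference of -0.81 (limma adjusted p = 0.0286). Glycine summed to 197701, 206550, 195341 and 145210 in CO sons and 241957, 238162, 228122 and 221898 in OID sons. Control male 4 was set apart below the other control sons, and the ratio was 1.25 (limma log2 difference of 0.33, standard error 0.23, adjusted p = 0.329, exact permutation p = 0.0286). Glutamine summed to 1432, 1615, 1322 and 1425 in CO sons and 1925, 1958, 2941 and 1619 in OID sons. The highest control and the lowest OID son were all but level (ratio 1.46, limma log2 difference of 0.51, standard error 0.25, adjusted p = 0.235, exact permutation p = 0.0286). Phenylalanine has 1 tRF and the values of PheGAA.

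As percentages of reads, which do not depend on the authors' scaling, glycine tRFs held 29.9% ± 1.35 (SD, n = 4) in CO sons and 33.9% ± 1.60 (SD, n = 4) in OID sons. The glycine shares were 28.6%, 30.9%, 31.2% and 28.8% in CO sons and 32.6%, 36.0%, 32.7% and 34.0% in OID sons, so every OID son was above every CO son (exact permutation p = 0.0286, adjusted over 21 amino acids p = 0.200). Alanine held 0.730% ± 0.0968 (SD, n = 4) and 0.418% ± 0.0603 (SD, n = 4), with shares of 0.874%, 0.681%, 0.668% and 0.697% in CO sons and 0.424%, 0.491%, 0.344% and 0.413% in OID sons. Phenylalanine held 0.0115% ± 0.00331 (SD, n = 4) and 0.00654% ± 0.000694 (SD, n = 4), and these too did not overlap. The closest sons, control male 1 at 0.00740% (interval 0.00644% to 0.00851%) and OID male 4 at 0.00735% (0.00663% to 0.00815%), cannot be told apart by their reads. Glutamine shares, in contrast to the sums, overlapped (0.235% ± 0.0351 against 0.306% ± 0.0794, SD, n = 4 each, exact permutation p = 0.114). Glutamate, the largest family, was nearly level at 49.4% ± 2.35 (SD, n = 4) and 50.6% ± 2.04 (SD, n = 4), and lysine held 5.34% ± 1.49 (SD, n = 4) and 3.27% ± 0.686 (SD, n = 4) with overlap (exact permutation p = 0.457 and p = 0.0571). The smallest p that 4 against 4 males allow is 0.0286, which 3 of the 21 amino acids had.

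Grouped by the chemistry of the amino acid, tRFs of the basic amino acids arginine, lysine and histidine made up a smaller part of the pool in OID sons. Their share was 8.24%, 6.58%, 8.68% and 10.6% in CO sons and 4.74%, 5.38%, 5.22% and 5.60% in OID sons, or 8.53% ± 1.66 (SD, n = 4) against 5.23% ± 0.364 (SD, n = 4). Every OID son was below every CO son (exact permutation p = 0.0286, adjusted over 7 classes p = 0.0667), and the difference of -3.30 percentage points was -3.95 without the shallow control male and -3.24 with OID males 1 and 2 averaged. Within the basic class, 7 of 8 tRFs had lower normalized values in OID sons, beside 22 of 47 over all tRFs. The median log2 difference of the class was -0.46 beside 0.08 over all 47. With median of ratios scaling and with the depth term, 6 of the 8 were lower. The arginine, lysine and histidine shares each overlapped between groups while their sum did not. The small amino acids glycine, alanine and serine held 30.8% ± 1.30 (SD, n = 4) in CO sons and 34.4% ± 1.63 (SD, n = 4) in OID sons without overlap. Nearly all of that class is glycine, at 29.9% and 33.9%, so the class restates the glycine share. Alanine, at 0.730% and 0.418%, and serine, at 0.239% and 0.161% with overlap, lay the other way. A mixed class of threonine, proline, cysteine, methionine and selenocysteine held 2.45% ± 0.449 (SD, n = 4) and 1.69% ± 0.165 (SD, n = 4), also without overlap (exact permutation p = 0.0286, adjusted p = 0.0667, in both classes). The acidic class was level at 52.2% ± 3.05 (SD, n = 4) and 52.1% ± 1.31 (SD, n = 4), and the amide, branched and aromatic classes overlapped.

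**Figure D3:**
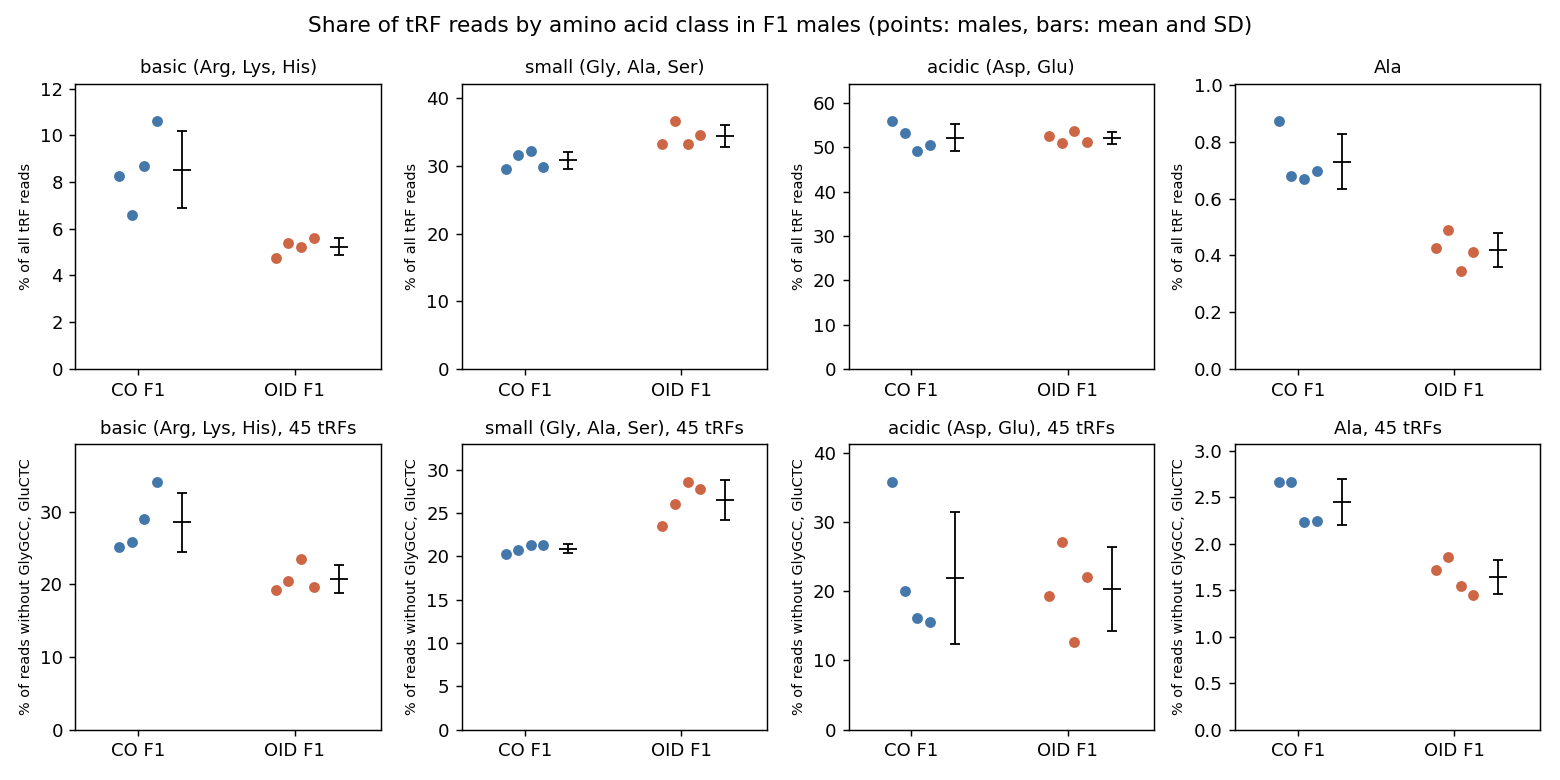
Share of tRF reads (vertical axes, percent, from 0) held by basic, small and acidic amino acid classes and by alanine in each F1 male, over all tRFs (upper row) and without GlyGCC and GluCTC (lower row). Points are males and bars the mean and SD. Basic shares are 4.74% to 5.60% in OID and 6.58% to 10.6% in CO sons, and acidic shares overlap.

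Because shares of a closed total move together, they were computed again without GluCTC and GlyGCC. The other 45 tRFs are again a closed total, so shares within them still move together and are not separate results. GluCTC and GlyGCC held 70.2% ± 3.13 (SD, n = 4) of reads in CO sons and 74.6% ± 2.62 (SD, n = 4) in OID sons, with overlap (exact permutation p = 0.0857). Among the other 45 tRFs the basic class held 28.5% ± 4.12 (SD, n = 4) in CO sons and 20.7% ± 1.94 (SD, n = 4) in OID sons, alanine 2.45% ± 0.248 (SD, n = 4) and 1.64% ± 0.183 (SD, n = 4), and glycine 17.7% ± 0.411 (SD, n = 4) and 24.2% ± 2.36 (SD, n = 4). None of these 3 overlapped (exact permutation p = 0.0286 each), while phenylalanine and the mixed class now did. Nearly all glycine reads left are GlyTCC, with 1.45% of all tRF reads in CO sons and 2.41% in OID sons, and GlyCCC, with 3.82% and 3.74%. Sorted by the first anticodon base, the position that wobbles, tRFs with G first held 19.3% ± 3.81 (SD, n = 4) in CO sons and 13.5% ± 2.13 (SD, n = 4) in OID sons of these 45, without overlap (exact permutation p = 0.0286, adjusted over 4 bases p = 0.114). The closest sons were the shallow control male 2 at 15.5% and OID male 1 at 15.2%, and whether counting error covers that gap was not tested. Over all 47 the G share was 30.4% ± 0.270 (SD, n = 4) and 31.2% ± 1.80 (SD, n = 4), with overlap. Shares of A, C and T first overlapped in both sets.

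The evenness of the pool was measured as the effective number of tRFs, the exponential of the Shannon entropy, which is the number of equally abundant tRFs that would give the same diversity. It was 7.04, 5.89, 6.84 and 7.12 in CO sons and 5.74, 6.09, 5.25 and 6.54 in OID sons. OID sons were lower on average (6.72 ± 0.568 against 5.90 ± 0.544, SD, n = 4 each), but the shallow control male 2 lay among them (exact permutation p = 0.0857). After thinning every library to 35677 reads the means were again 6.72 and 5.90. The 45 tRFs without the pair of leaders had 16.8 ± 1.37 and 16.7 ± 0.405 (SD, n = 4 each). At least 10 reads were found for 46 tRFs in each OID library and for 46, 36, 45 and 45 in the CO libraries, and after thinning for 37.3 on average in OID and 37.6 in CO.

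Within an amino acid, the ratio of an isoacceptor to the others does not depend on scaling. Of 34 such ratios 0 had an adjusted p under 0.05 by limma (percent called 0, lowest adjusted p = 0.351), 2 (5.88%) had an unadjusted p under 0.05, and 2 (5.88%) did not overlap. AlaCGC held 19.6%, 13.2%, 14.8% and 15.0% of alanine reads in CO sons and 19.5%, 18.8%, 25.1% and 23.9% in OID sons. Control male 1 was in the OID range (log2 ratio difference of 0.60, limma standard error 0.24, unadjusted p = 0.0335, adjusted p = 0.351). Within alanine, AlaAGC was thus 74.2% ± 7.93 (SD, n = 4) in CO sons and 69.3% ± 4.34 (SD, n = 4) in OID sons. SerCGA held 4.89%, 7.69%, 1.44% and 2.52% of serine reads in CO sons and 8.21%, 5.85%, 7.22% and 11.0% in OID sons, with control male 2, on 4 SerCGA reads, inside the OID range (log2 ratio difference of 1.24, limma standard error 0.51, unadjusted p = 0.0402, adjusted p = 0.351).

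The ratios without overlap were those of GlyCCC and ProAGG. GlyCCC held 12.4%, 12.6%, 13.1% and 13.2% of glycine reads in CO sons and 12.1%, 10.6%, 10.9% and 10.7% in OID sons, lower in every OID son (12.8% ± 0.405 against 11.1% ± 0.705, SD, n = 4 each, exact permutation p = 0.0286). The closest sons, control male 1 and OID male 1, had 95% Wilson intervals of 12.3% to 12.4% and 12.0% to 12.2%. The interval of the shallow control male 2, 11.9% to 13.2%, spans the share of OID male 1. For that library the lack of overlap in GlyCCC was thus within counting error. ProAGG held 33.9%, 29.5%, 38.5% and 38.2% of proline reads in CO sons and 39.2%, 38.5%, 38.8% and 39.3% in OID sons. Control male 3, with an interval of 37.0% to 40.0%, and OID male 2, with 37.9% to 39.2%, cannot be told apart by their reads, so the lack of overlap in ProAGG was within counting error. The OID sons were more alike in proline composition (39.0% ± 0.356, SD, n = 4) than the CO sons (35.0% ± 4.23, SD, n = 4). The lowest CO share, that of the shallow male 2, rested on 67 of 227 proline reads, with an interval of 24.0% to 35.8%. The CO spread thus includes counting error. LysCTT held 85.3%, 74.6%, 85.5% and 85.2% of lysine reads in CO sons and 76.7%, 76.8%, 73.6% and 78.3% in OID sons. The 3 deeper control sons were close together above all OID sons and the shallow control male 2 was among the OID sons. The log2 ratio of LysCTT to LysTTT differed by -0.60 over all 8 males (limma standard error 0.28, adjusted p = 0.351) and by -0.85 without that male (limma adjusted p = 0.0392), so the call turned on 1 library. With log2 depth as a covariate 5 ratios passed, those of LysCTT, ArgTCT, LeuAAG, LeuCAG and LeuTAG, with limma adjusted p from 0.00630 to 0.0189. In valine, ValTAC held 49.0% of the reads of OID male 4 and 8.31% to 24.0% in the other 7 sons.

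**Figure D4:**
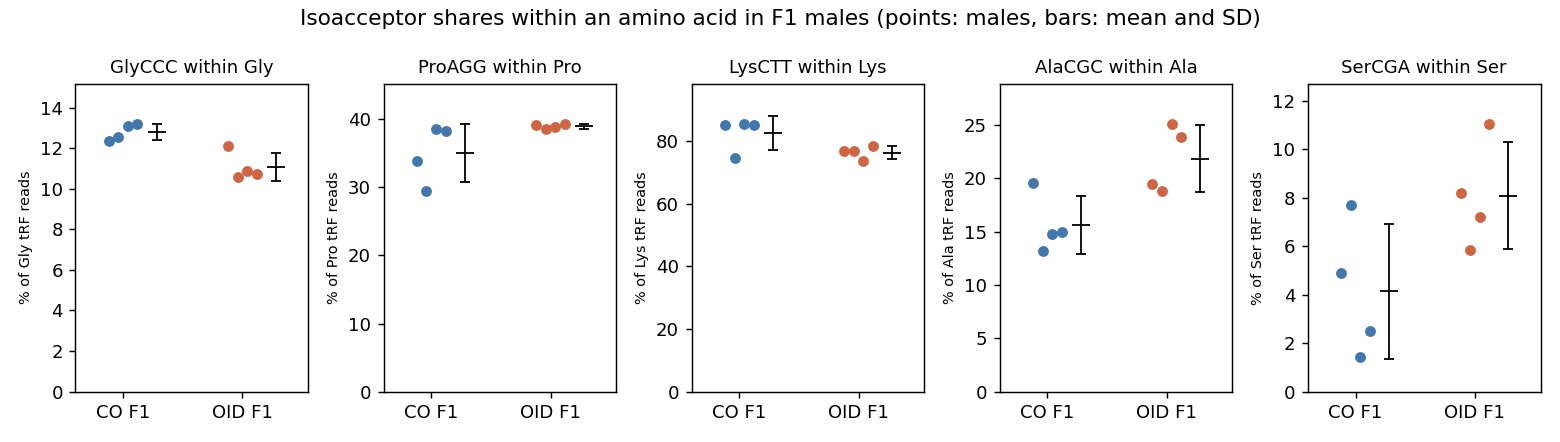
Share of an amino acid's tRF reads (vertical axes, percent, from 0) held by 5 isoacceptors in each F1 male. Points are males 1 to 4 from left to right, and bars give the mean and SD. GlyCCC is lower in every OID son, and the CO son with a low LysCTT share is male 2.

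The sons of a group also differed among themselves. Over the 36 tRFs with at least 10 reads in all 8 libraries, the median SD of the log2 value was 0.51 in CO sons and 0.42 in OID sons, and 27 of 36 tRFs had the larger SD in CO. Without the shallow control male the CO median was 0.43, and 25 of the 36 tRFs still had the larger SD in CO. CO male 1 was furthest from its own group, at a mean root mean square distance of 0.99 on the log2 scale, and OID sons were at 0.61 to 0.69 from each other. The mean distance between the groups was 0.839, beside 0.854 within CO and 0.644 within OID, so CO sons were no closer to each other than to OID sons. CO males 2 and 3 lay nearer to the OID sons (0.823 and 0.709) than to their own group (0.903 and 0.741). The other CO males and all OID sons lay nearer to their own group.

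Set beside the fathers' generation, where OID males ate the diet themselves, the amino acid sums of the sons showed no difference in the effect of diet that passed (limma interaction of diet and generation, 0 of 21 at an adjusted p under 0.05, lowest adjusted p = 0.593). Before adjustment 1 was under 0.05, valine, with a log2 difference of 0.48 in F1 and 1.84 in F0 (interaction of -1.35, unadjusted p = 0.0323). The F0 differences rest on 3 CO males, of which CO F0 male 3 had only 17966 tRF reads. The tRF values of an F0 library sum to between 525579 and 1127790, a wider range than in F1. Alanine had -0.65 in F1 and -0.08 in F0, lysine -0.53 in F1 and 0.29 in F0, arginine -0.56 and -0.71, and glycine 0.33 and 0.24 (limma interaction, unadjusted p = 0.200, 0.0666, 0.777 and 0.871).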

How the data were processed

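Sperm small RNA of 4 CO F1 and 4 OID F1 males was analysed, with 3 CO F0 and 4 OID F0 males for the interaction. Groups and replicate numbers are from the sample labels. The submitters' processing notes name Bowtie2 2.3.4.1, DESeq2 and the build mm10, with no role. According to the paper, reads were trimmed, tRNAs were annotated with blastn, reads that several tRNAs shared were counted with a weight from their alignment score, and values were normalized to TPM. The tRF values of an F1 library sum to between 503558 and 741153, so they were not treated as TPM. What the authors deposited is a normalized signal for each tRF in each library. Less 0.5, each of the 705 tRF values was a whole number of steps of 1 size per library, to within 0.001 of a step, and these steps were taken as reads. Where reads were shared they are weighted reads, so intervals from them are approximate, most of all for isoacceptors with like 5′ sequence. The miRNA and mature tRNA entries had another step (0.225 to 5.10 times) and were used for read counts only.

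OID and CO were compared with limma 3.58.1 in R 4.3.3 on log2 of the value + 1, with Benjamini-Hochberg adjustment and a threshold of 0.05, over tRFs, amino acid sums and isoacceptor log2 ratios, two-sided. This log2 scale understates differences of low tRFs. Single values were set against each other by exact permutation (scipy 1.17.1), two-sided. In simulated F1 data where 10 of 47 tRFs had a log2 change of 2, limma recovered 92.8% of them, and 38.8% at a change of 1. False calls per data set were 0.44 and 0.3. The simulated noise was independent between tRFs, with SDs shuffled over tRFs and no difference of depth between groups. The rates may therefore not hold for the real libraries. Members, lists and named tRFs were chosen with earlier results of these data known: the 6 most abundant tRFs, those with p under 0.05 or without overlap, and SerCGA, ValTAC, ArgCCG, ArgTCG and SeCTCA. Intervals are 95% Wilson intervals, and 3 reads is the floor. No pair of libraries within an F1 group agreed within sampling noise (12 pairs, lowest chi-square over its degrees of freedom 30.8). Same-numbered CO and OID sons had deviations correlated at -0.176, -0.267, 0.301 and 0.253, and the numbers were not used as pairs. Alternatives were other pseudocounts, filters, scalings, depth limits and terms, limma-voom, the replicate block and leaving out each male. Negative binomial count models, also planned, were not run, because the low values were too few to pass the check of recovered reads. Averaging OID males 1 and 2 was added after seeing the data. tRNA loci were taken from RefSeq on GRCm38 and set against GENCODE M21. Figures were drawn with matplotlib 3.10.9.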

Additional observations from a re-analysis of the deposited data

Results flagged for a closer look

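In groups of 4 males, the gap of the highest or lowest male to the next, as a part of the group's range, was tested against Dixon's critical value in 72 groups, of which chance passes about 3.6, and 7 passed. CO male 1 was low in PheGAA, and in the phenylalanine sum that equals it, by a gap of 0.911 of the range, high in AspGTC by 0.839, and high in the alanine share of reads by 0.856. OID male 3 was low in ArgCCG by 0.83, and CO male 4 low in the glycine sum by 0.842. CO male 2, the shallow library, was low in the number of tRFs with at least 10 reads by 0.9. Without CO male 1 the log2 difference of ArgTCG was -1.51 (limma adjusted p = 0.0459). Outside the tRFs, the miRNA entries of OID F1 males 1 and 2 held identical reads in all 68 miRNAs with a read, and the source of the identity was not tested.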

How the results depend on the processing

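The direction of most results was kept, but counts were not. tRFs with an adjusted p under 0.05 were 3 on the share of summed values (AlaAGC, ArgCCG and ArgTCG, each at limma adjusted p = 0.0496) and 0 to 1 when leaving out each male in turn, and amino acids 1 on the share of summed values (alanine, limma adjusted p = 0.0286). Isoacceptor ratios with an adjusted p under 0.05 were 5 with log2 depth as a covariate, 3 of them of leucine, 1 with libraries of at least 100000 tRF reads and 0 to 1 when leaving out each male. tRFs with an unadjusted p under 0.05 were 5 with a mean value of at least 100, 4 with all 4 groups in 1 fit, 5 on the share of summed values, 5 with OID males 1 and 2 averaged and 4 to 9 when leaving out each male (4 without CO male 3 or OID male 3, 5 without CO male 4 or OID male 2). For amino acids the counts were 4 with a pseudocount of 10, 1 with a mean of at least 100, 1 with all groups, 4 with log2 depth, 4 with libraries of at least 100000 reads, 4 with the replicate block, and 1 to 4 without each male (4 without CO male 1 or 2, 1 without OID male 2 or 3). For isoacceptor ratios they were 1 with a mean of at least 100, 9 with log2 depth, 8 with libraries of at least 100000 reads, 0 with the replicate block, 4 with OID males 1 and 2 averaged, and 0 to 8 without each male (0 without CO male 3 or 4 or OID male 4, 8 without CO male 2). GluTTC turned to -0.18 with log2 depth, -0.22 with limma-voom and -0.13 without CO male 4 (highest 0.60, without CO male 1), GlyCCC to -0.029 on the share of summed values, the G-first share to -5.82 points without GlyGCC and GluCTC, and the number of tRFs with at least 10 reads to -0.365 after thinning. The block left the tRF count at an unadjusted p at 8. The cause was not tested. Depth of CO male 2 limits tRFs with few reads, 11 of 47 having under 10 in at least 1 library.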
